A study of Mus musculus with 18 samples.

Results

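The BCL2 family sets whether a cell keeps its mitochondria intact or dies. Of the 26665 genes listed for each library, 10 belong to the set followed here, chosen by symbol: the anti-apoptotic members Bcl2, Mcl1, Bcl2l1, Bcl2a1b and Bcl2a1d, the effectors Bax and Bak1, and the BH3-only members Bcl2l11, Bbc3 and Pmaip1. All 10 were listed and all 10 were among the 12265 genes tested, those with an expression value of 1 or more in at least 3 libraries. Pmaip1 reached that value in 15 of the 18 libraries and the other members in all 18.

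Bax and Bak1 are the proteins that open pores in the outer mitochondrial membrane, which releases cytochrome c and starts the caspases. Anti-apoptotic members hold the effectors and the BH3-only proteins in check, and BH3-only proteins rise or are activated under stress, cytokine withdrawal or strong receptor signals. In T cells, cytokines such as IL-7 and IL-2 are known to sustain Bcl2 and Mcl1, costimulation through CD28 is known to raise Bcl-xL (the product of Bcl2l1), and regulatory T cells are known to depend on Mcl1 and to be lost through Bim (the product of Bcl2l11).

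RNA came from sorted spleen T cells of C57BL/6 mice, and each of 6 groups had 3 libraries. The CD28KO groups were tTreg, pTreg and Tconv of CD28-/-Foxp3EGFP mice, and the WT groups were the same populations of Foxp3EGFP mice, so animals of both genotypes carried the Foxp3 reporter. CD28 is the receptor of the classical costimulatory signal, and its loss is given for the whole animal, with no Cre or cell type named. Treg are regulatory T cells defined by the transcription factor Foxp3, split here by the surface receptor Nrp1 into tTreg (Nrp1+) and pTreg (Nrp1-), and Tconv are conventional T cells. The names tTreg and pTreg are the study's labels for the Nrp1 gates, and the sources used here give no age, sex or number of animals behind a library. Whether the 3 replicates of a group were different mice is not stated, and a p-value then reflects only how far these libraries scatter.

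Values are FPKM, reads per kilobase of transcript scaled to the mapped reads of a library, and the depth is unknown. FPKM summed to between 514726 and 994139 per library. The sort markers followed the labels, with 1 exception: CD28KO Tconv replicate 3 had 21.1 FPKM of Foxp3 and a summed Treg marker level of 106 FPKM, against 3.79 and 4.83 FPKM in replicates 1 and 2. Cd28 was not lower in CD28KO libraries (76.1 ± 4.68 FPKM in CD28KO tTreg and 60.0 ± 2.75 FPKM in WT tTreg, SD, n = 3 each), so the whole-gene value does not check the genotype labels. CD28KO Tconv replicate 3, WT pTreg replicate 1 and WT Tconv replicate 1 stood apart, with 26.9%, 20.8% and 19.4% of their FPKM in the single locus Mir5105, against 2.98% to 11.6% in the other 15 libraries. Without these 3 libraries all 18 calls described below were still made, with adjusted p values of at most 0.0133, and their changes are given beside the results that rest on them. T cell markers summed to between 993 and 2037 FPKM in every library, and the B cell genes Ms4a1 and Pax5 stayed at or below 0.224 FPKM.

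The members fell into a stable and a variable set. Mcl1 was the most abundant member in every library, at 37.9% to 55.6% of the members' summed FPKM, and its highest group mean (CD28KO pTreg) was 1.24-fold its lowest (CD28KO Tconv). The highest group mean of Bcl2, Bax, Bak1, Bcl2l11 and Bbc3 was between 1.36-fold and 1.7-fold their lowest. Bcl2l1 spanned 3.21-fold, Bcl2a1b 6.95-fold, Bcl2a1d 9.39-fold and Pmaip1 14.0-fold, in each case with tTreg at the top and CD28KO Tconv at the bottom. The Pmaip1 span rests on a CD28KO Tconv mean of 0.582 FPKM, with values of 0.386 to 0.957 FPKM, all below 1 FPKM. Bcl2l1, Bcl2a1b, Bcl2a1d and Pmaip1 made up all 18 calls among the 120 pairs of a member and a comparison. Their log2 values rose and fell together over the 18 libraries, with Pearson r between 0.87 and 0.98 for the 6 pairs among them. That r is a description, since the libraries share 6 groups and the A1 genes share reads.

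**Figure D1:**
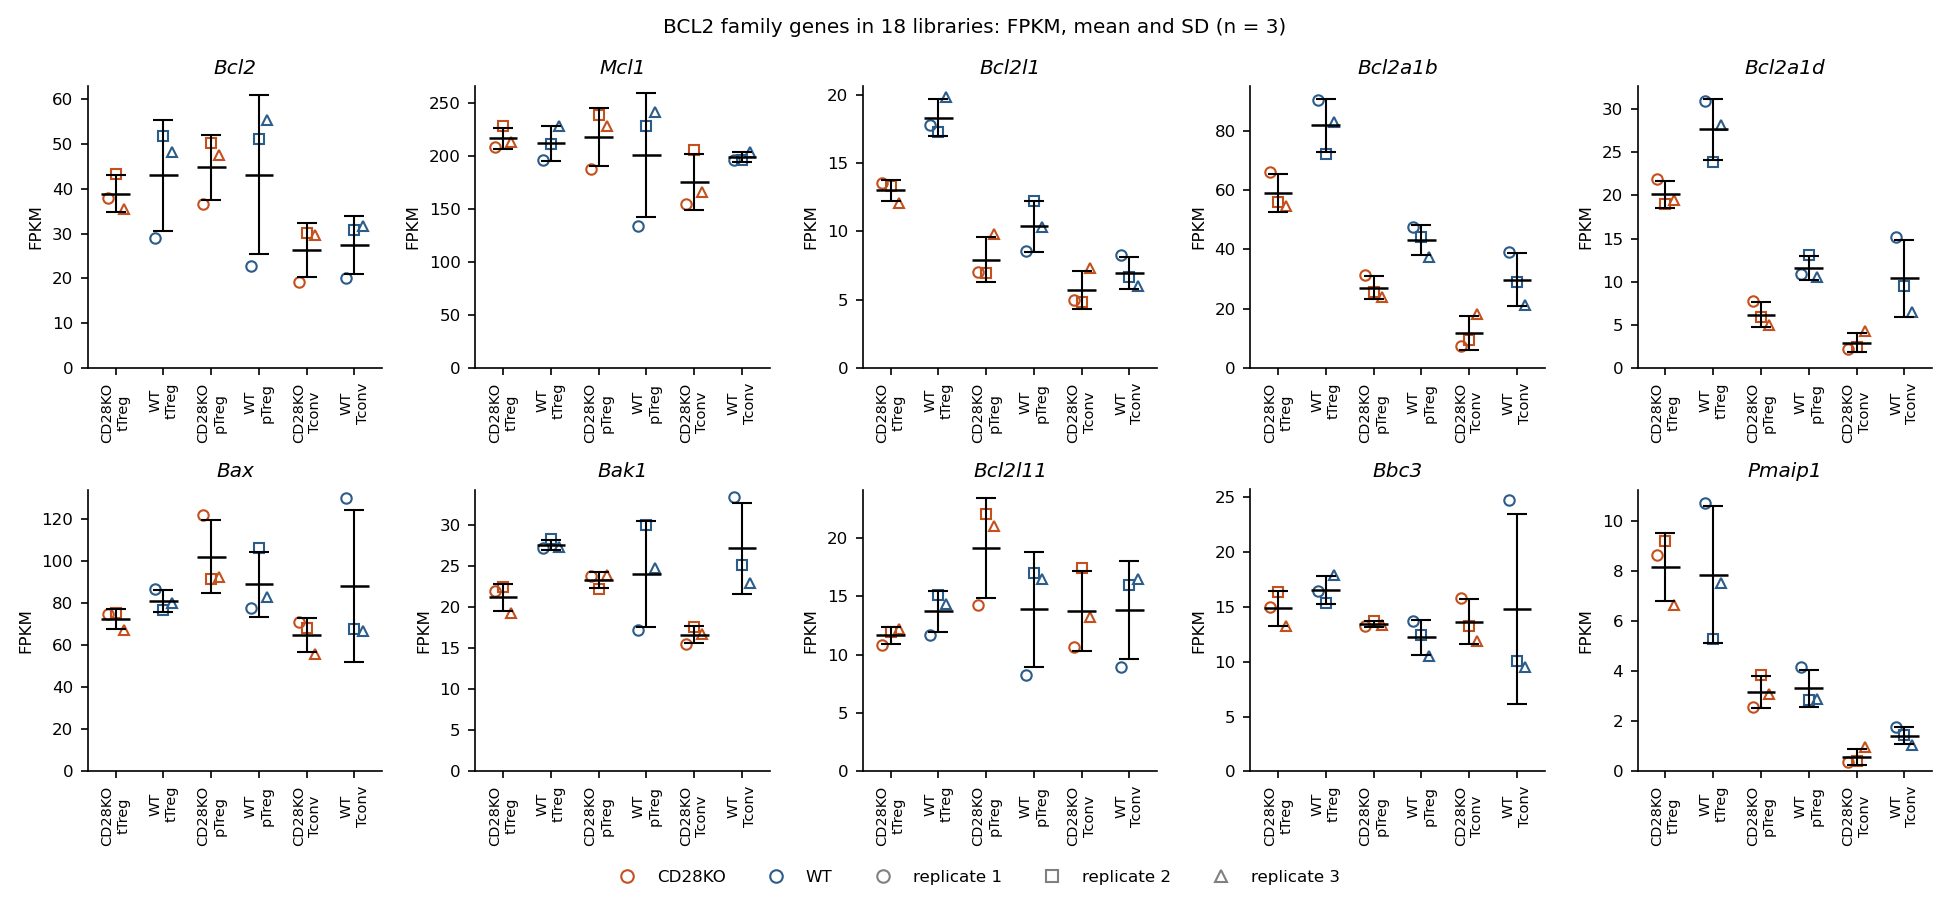
FPKM of each member in the 18 libraries by group (x axis), with the mean and SD of 3 libraries as bars and the replicate number as marker shape. Bcl2a1b, Bcl2a1d, Bcl2l1 and Pmaip1 are highest in tTreg and lowest in CD28KO Tconv, while the other members cover similar ranges in most groups.

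The tests used limma on log2(FPKM + 1), and a gene was called at a Benjamini-Hochberg adjusted p under 0.05 over all tested genes. Changes below are differences of log2(FPKM + 1) ± SE, a scale that understates the change of low genes. Between CD28KO and WT, 0 of 10 members were called in tTreg (0.204% of all tested genes), 0 of 10 in pTreg (0.204%) and 2 of 10 in Tconv (0.791%). Beside the counts of 0, unadjusted p values under 0.05 were found for 1 member in tTreg and 2 in pTreg. In tTreg against Tconv 4 of 10 were called in CD28KO (12.1% of all tested genes, 9.63% called higher) and 4 of 10 in WT (12.6%, 8.33% called higher), all of them higher in tTreg. In tTreg against pTreg 3 of 10 were called in CD28KO (4.08%, 3.13% called higher) and 3 of 10 in WT (4.93%, 4.44% called higher), again all higher in tTreg. In pTreg against Tconv 2 of 10 were called in CD28KO (5.85%, 4.8% called higher), both higher in pTreg, and 0 of 10 in WT (4.49%), where 3 members had an unadjusted p under 0.05. The members' share of calls lay above the share of all tested genes in each comparison with a call. That is a description only, since the members were chosen with earlier results of these data known. Bcl2a1b and Bcl2a1d also share reads, so they do not count as independent members. The 2 calls between CD28KO and WT in Tconv were these 2 genes.

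The median change of all tested genes was not 0, so each change is best read beside it. For CD28KO minus WT that median was -0.05 in tTreg, 0.19 in pTreg and -0.16 in Tconv. For tTreg minus pTreg it was -0.03 in CD28KO and 0.19 in WT, for tTreg minus Tconv 0.09 in CD28KO and -0.02 in WT, and for pTreg minus Tconv 0.14 in CD28KO and -0.21 in WT. Values after scaling each library to the same median are given where they change a call of a gene named below. The share of all tested genes without overlap was taken only between CD28KO and WT. A lack of overlap between populations is therefore given as a description of the values, and how common it is among all genes is not known here.

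Bcl2a1b and Bcl2a1d encode A1, an anti-apoptotic member that is short-lived and known as a target of NF-kB in lymphocytes. They are near-identical copies on chromosome 9 (GRCm38, GENCODE release 21), Bcl2a1b at chr9:89199209-89207827 on the plus strand and Bcl2a1d at chr9:88723285-88731914 on the minus strand. Their coding sequences of 516 bases differed at 6 positions (98.84% identity), and a further copy, Bcl2a1a, differed from Bcl2a1b at 11 and from Bcl2a1d at 7. The first 90 coding bases, all in exon 1, are shown because they hold 2 of the 6 differences between Bcl2a1b and Bcl2a1d. Capitals mark the 6 positions at which the 3 genes are not all alike, and each line reads 5′ to 3′ on the coding strand.
Bcl2a1b, chr9:89199360-89199449, plus strand: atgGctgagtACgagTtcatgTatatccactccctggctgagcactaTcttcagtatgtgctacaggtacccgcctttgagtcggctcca
Bcl2a1d, chr9:88731630-88731719, minus strand: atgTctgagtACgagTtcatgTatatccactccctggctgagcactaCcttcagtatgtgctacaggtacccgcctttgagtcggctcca
Bcl2a1a, chr9:88957051-88957140, plus strand: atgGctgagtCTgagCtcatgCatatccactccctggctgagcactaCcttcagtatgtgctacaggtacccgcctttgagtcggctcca

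Of the 50-base windows of the annotated transcripts, the length of the reads, 79.2% for Bcl2a1b (608 of 768) and 79.5% for Bcl2a1d (647 of 814) also occur in transcripts of another gene. Most reads of one copy could therefore have been assigned to another, and how the authors' counting split them is not given in the sources used here. The level of a single A1 gene is uncertain for that reason, and the summed level of Bcl2a1a, Bcl2a1b and Bcl2a1d, chosen after the values were seen, is given beside it. For the other members that share was 8.51% for Bax, whose windows recur in the gene model Gm45808, and at most 0.135% for the rest.

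The sequence upstream of the A1 genes is as similar as their coding sequence. In the RefSeq promoter windows (GRCm38.p6), the 136 bases of Bcl2a1d just before its annotated gene start had a counterpart in Bcl2a1b at every base, and 135 were identical. Bcl2a1b held 6 further bases without a partner. These stretches are shown since the 2 genes moved together, with capitals at the bases that differ or have no partner.
Bcl2a1b, chr9:89199023-89199164, plus strand: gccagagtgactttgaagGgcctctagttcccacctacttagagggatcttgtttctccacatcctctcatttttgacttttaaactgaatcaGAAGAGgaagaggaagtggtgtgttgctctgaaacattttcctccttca
Bcl2a1d, chr9:88731915-88732050, minus strand: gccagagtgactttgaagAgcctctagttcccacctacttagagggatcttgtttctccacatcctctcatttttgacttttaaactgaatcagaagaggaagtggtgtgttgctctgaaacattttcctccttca

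The motifs of 3 factor families were searched on both strands of the 300-base RefSeq windows of all genes: the kappa-B consensus, the FOXO motif GTAAACA and the STAT motif TTCNNNGAA. They occur in 8.46%, 3.65% and 8.30% of 32851 windows. None was found in the window of Bcl2a1b or Bcl2a1d. The kappa-B consensus was found in 1 of 3 windows of Bcl2l1 and 1 of 3 of Bbc3, and the FOXO motif in 1 of 3 windows of Bbc3 and 1 of 2 of Bcl2l11. No STAT motif was found in the windows of the 9 members that have one.

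In the Treg populations Bcl2a1b ranked by population before genotype. It had 66.3, 56.1 and 54.7 FPKM in CD28KO tTreg and 90.3, 72.3 and 83.1 FPKM in WT tTreg. In pTreg it had 31.5, 25.6 and 24.1 FPKM in CD28KO and 47.6, 44.1 and 37.6 FPKM in WT. CD28KO Tconv had 7.53, 9.49 and 18.3 FPKM and WT Tconv 39.1, 28.9 and 21.2 FPKM. Every tTreg library was above every pTreg library, WT Tconv overlapped with pTreg of either genotype, and CD28KO Tconv lay below all other libraries. The highest of its 3 values was that of replicate 3, the library with Treg transcripts.

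Bcl2a1d showed the same order at a lower level. CD28KO tTreg had 21.9, 19.0 and 19.5 FPKM and WT tTreg 31.0, 23.9 and 28.1 FPKM. CD28KO pTreg had 7.73, 5.92 and 4.92 FPKM and WT pTreg 10.9, 13.1 and 10.6 FPKM. CD28KO Tconv had 2.20, 2.37 and 4.27 FPKM and WT Tconv 15.2, 9.47 and 6.49 FPKM. CD28KO libraries lay below WT libraries without overlap in each of the 3 populations, as they did for Bcl2a1b.

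In Tconv both genes fell in CD28KO relative to WT. Bcl2a1b fell by 1.32 ± 0.26 (limma adjusted p = 0.0209) and Bcl2a1d by 1.49 ± 0.25 (adjusted p = 0.00665). Without the 3 libraries that stand apart the changes were -1.45 ± 0.18 (adjusted p = 0.00101) and -1.43 ± 0.20 (adjusted p = 0.00224), which leaves 2 libraries a group. After median scaling they were -1.17 and -1.35 and no longer called (adjusted p = 0.222 and 0.0881). Neither was called in a fit of the Tconv libraries alone (adjusted p = 0.529 and 0.376), and the same held with quantile normalization (0.139 and 0.0634). Without CD28KO Tconv replicate 1 or replicate 2 neither was called, with adjusted p = 0.175 and 0.133 for Bcl2a1b and 0.0572 and 0.0545 for Bcl2a1d. Bcl2a1b was also not called without WT Tconv replicate 1 or 2 (adjusted p = 0.161 and 0.0901). In sorted bulk samples, fewer cells that hold a transcript and less of it per cell cannot be told apart.

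In the Treg populations the A1 genes had lower values in CD28KO but passed no test. In tTreg Bcl2a1b differed by -0.46 ± 0.26 and Bcl2a1d by -0.43 ± 0.25 (adjusted p = 1 for both). In pTreg the differences were -0.65 ± 0.26 (adjusted p = 0.77) and -0.82 ± 0.25 (adjusted p = 0.528), or -0.86 and -1.02 after median scaling (adjusted p = 0.548 and 0.299). All CD28KO libraries lay below all WT libraries for both genes, which was so for 15.1% of all tested genes in tTreg, 1.86% in pTreg and 18.2% in Tconv.

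The summed level of the 3 A1 copies gave the same picture. It was 94.5, 81.6 and 80.8 FPKM in CD28KO tTreg, against 132, 104 and 119 FPKM in WT tTreg. It was 41.6, 33.8 and 31.0 FPKM in CD28KO pTreg, against 62.7, 61.5 and 51.7 FPKM in WT pTreg. In Tconv it was 10.9, 13.1 and 23.8 FPKM in CD28KO, against 59.8, 41.9 and 30.4 FPKM in WT. The genotypes did not overlap in any population. The sum leaves out other genes that share windows with these copies, and the effect of read assignment was not tested.

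Marker transcripts of other cells also differed between the genotypes in Tconv, in both directions. Of the 6 neutrophil and monocyte markers, cells in which A1 is also abundant, the summed level was 6.70 to 8.96 FPKM in CD28KO Tconv and 13.7 to 19.9 FPKM in WT Tconv. Among these markers S100a8 overlapped, with 3.52, 2.70 and 2.42 FPKM in CD28KO Tconv and 3.73, 9.06 and 2.70 FPKM in WT Tconv. Itgam went against the sum, with 0.988, 1.31 and 1.19 FPKM in CD28KO Tconv and 0.607, 1.03 and 1.18 FPKM in WT Tconv, while Csf1r and Cd14 were at or below 0.739 FPKM in all 18 libraries. That sum was 9.96 to 43.4 FPKM in CD28KO tTreg and 19.8 to 31.3 FPKM in WT tTreg, and 15.2 to 57.0 FPKM in CD28KO pTreg and 18.6 to 72.3 FPKM in WT pTreg, so it was higher in most Treg than in Tconv libraries and as high in pTreg as in tTreg. The 5 B cell markers summed to 5.51 to 6.07 FPKM in CD28KO tTreg and 10.6 to 12.3 FPKM in WT tTreg, nearly all of it Cd79a and Cd79b, and to 0.942 to 3.22 FPKM over the 6 Tconv libraries. NK cell markers summed to 0.514 to 1.11 FPKM in CD28KO Tconv and 1.65 to 2.07 FPKM in WT Tconv. CD8 T cell markers were higher in CD28KO, with sums of 10.8 to 12.9 FPKM in CD28KO Tconv and 7.57 to 9.95 FPKM in WT Tconv. Treg markers summed to 3.79, 4.83 and 106 FPKM in CD28KO Tconv and 17.6 to 22.4 FPKM in WT Tconv. The part of these cells in the A1 differences was not tested.

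**Figure D2:**
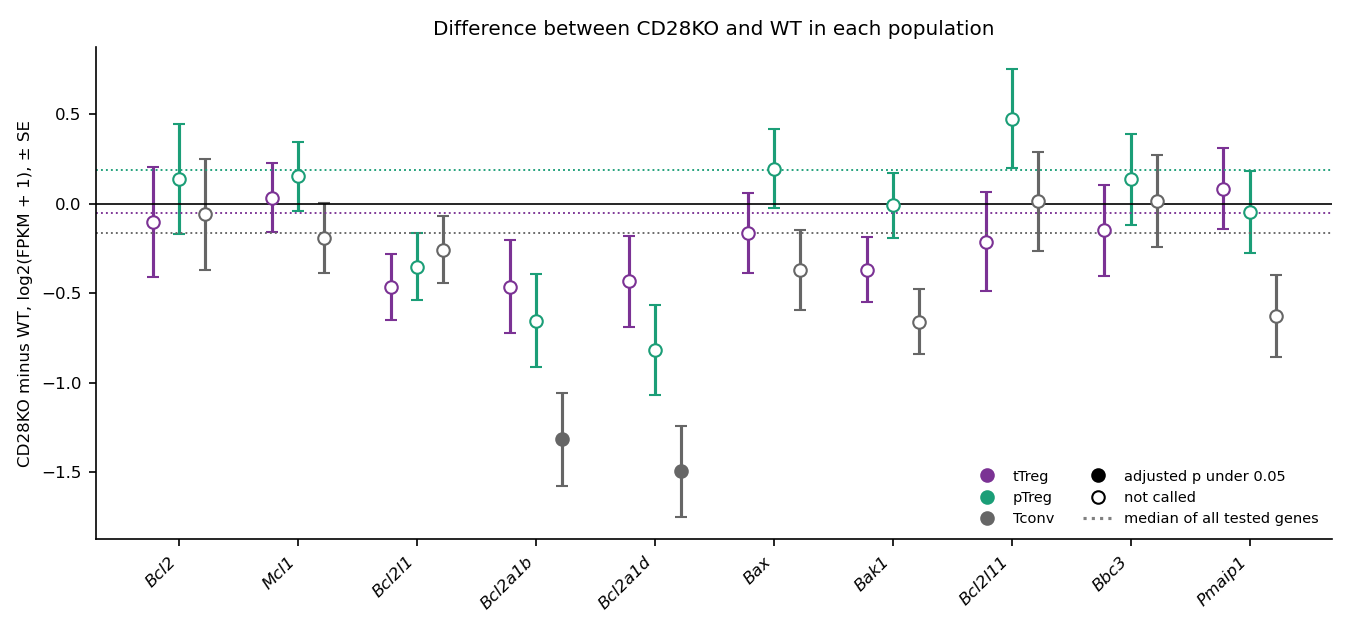
CD28KO minus WT difference of log2(FPKM + 1) ± SE for each member (x axis) in tTreg, pTreg and Tconv, with filled points for adjusted p under 0.05 and dotted lines at the median change of all tested genes. Only Bcl2a1b and Bcl2a1d in Tconv are called, at -1.32 and -1.49.

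Between populations the A1 genes gave the largest differences together with Pmaip1. In tTreg minus Tconv, Bcl2a1b rose by 2.32 ± 0.26 in CD28KO (adjusted p = 1.59e-05) and by 1.47 ± 0.26 in WT (adjusted p = 0.000732). Bcl2a1d rose by 2.46 ± 0.25 in CD28KO (adjusted p = 9.25e-06) and by 1.40 ± 0.25 in WT (adjusted p = 0.000922). These 4 calls held under all 27 alternatives. Without the 3 libraries that stand apart the changes were 2.66 and 2.68 in CD28KO and 1.68 and 1.69 in WT. The CD28KO and WT comparisons share no library.

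In tTreg minus pTreg, Bcl2a1d rose by 1.57 ± 0.25 in CD28KO (adjusted p = 0.00107) and by 1.19 ± 0.25 in WT (adjusted p = 0.00889). The CD28KO call held under all 27 alternatives, and the WT call was not made after median scaling (0.94, adjusted p = 0.105), with quantile normalization (adjusted p = 0.0618) or with only the compared groups (adjusted p = 0.0521), and was 1.16 without the libraries that stand apart (adjusted p = 0.00223). Bcl2a1b rose by 1.10 ± 0.26 in CD28KO (adjusted p = 0.0208). It was not called after median scaling (1.10, adjusted p = 0.0637) or without CD28KO tTreg replicate 1, 2 or 3 or CD28KO pTreg replicate 2 or 3, where the adjusted p was between 0.0516 and 0.109. In WT its difference of 0.91 ± 0.26 had an adjusted p of 0.0566, of 0.0345 with the replicate block and of 0.00301 without the libraries that stand apart.

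In pTreg minus Tconv, Bcl2a1b rose by 1.22 ± 0.26 in CD28KO (adjusted p = 0.00841), and the difference was 0.55 ± 0.26 in WT (adjusted p = 0.305, and 0.0351 without the libraries that stand apart). The CD28KO call was not made without CD28KO Tconv replicate 1 (0.97, adjusted p = 0.0658), after median scaling (1.08, adjusted p = 0.0646) or with only the compared groups (adjusted p = 0.0618), and was 1.56 ± 0.17 without the 3 libraries that stand apart (adjusted p = 5.04e-05). Bcl2a1d differed by 0.88 ± 0.25 in CD28KO (adjusted p = 0.0518, 0.0284 with the replicate block and 0.00138 without the libraries that stand apart) and by 0.21 ± 0.25 in WT (adjusted p = 0.669).

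The 2 copies did not keep one ratio. Bcl2a1d was 0.331 to 0.356 of Bcl2a1b in CD28KO tTreg and 0.330 to 0.343 in WT tTreg. The ratio was 0.204 to 0.245 in CD28KO pTreg and 0.230 to 0.298 in WT pTreg. In Tconv it was 0.233 to 0.292 in CD28KO and 0.306 to 0.389 in WT. No pTreg library reached the tTreg range, and with reads shared between the copies this is a description of the deposited values only.

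**Figure D3:**
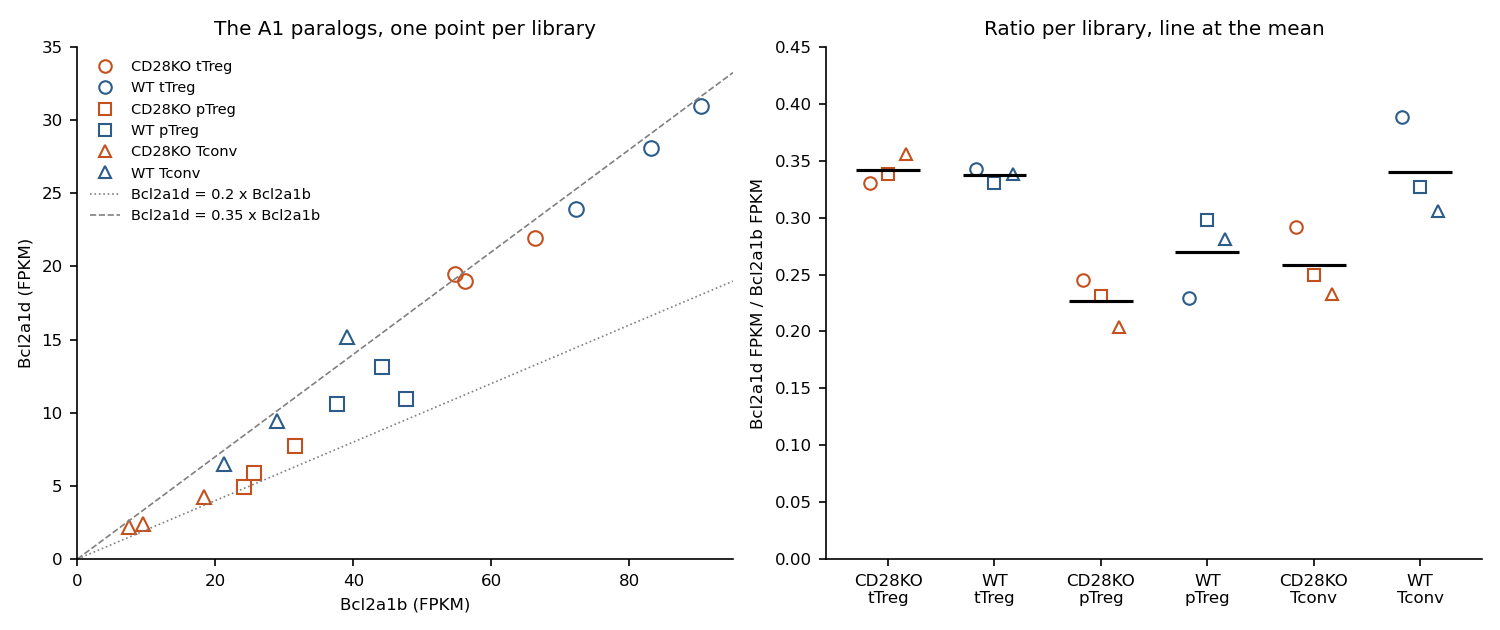
Left, Bcl2a1d against Bcl2a1b in FPKM, 1 point per library, with lines at ratios of 0.2 and 0.35. Right, the ratio of Bcl2a1d to Bcl2a1b per library and its group mean: tTreg libraries lie at 0.330 to 0.356 and pTreg libraries at 0.204 to 0.298.

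Bcl2l1, which encodes Bcl-xL, graded from tTreg through pTreg to Tconv. It had 13.5, 13.3 and 12.1 FPKM in CD28KO tTreg and 17.8, 17.3 and 19.9 FPKM in WT tTreg. It had 7.0, 6.95 and 9.81 FPKM in CD28KO pTreg and 8.55, 12.2 and 10.3 FPKM in WT pTreg. CD28KO Tconv had 4.99, 4.85 and 7.28 FPKM and WT Tconv 8.26, 6.66 and 5.97 FPKM. WT tTreg stood above all other libraries, and from CD28KO tTreg downwards each group overlapped with the next in order of mean.

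Bcl2l1 rose in tTreg relative to Tconv by 1.08 ± 0.19 in CD28KO (adjusted p = 0.000583) and by 1.29 ± 0.19 in WT (adjusted p = 0.000117), called under all 27 alternatives, and by 1.24 and 1.40 without the libraries that stand apart. In tTreg minus pTreg it rose by 0.78 ± 0.19 in WT (adjusted p = 0.0205). That WT call was not made after median scaling (0.53, adjusted p = 0.123), with quantile normalization (adjusted p = 0.0804), with only the compared groups (adjusted p = 0.3), or without WT tTreg replicate 1, 2 or 3 or WT pTreg replicate 1 or 3 (adjusted p between 0.0539 and 0.122). Without the libraries that stand apart it was 0.66 and called (adjusted p = 0.0133). In CD28KO the difference of 0.66 ± 0.19 had an adjusted p of 0.0617, of 0.0342 with the replicate block, of 0.042 after median scaling and of 0.00428 without those libraries. In pTreg minus Tconv the differences were 0.42 ± 0.19 in CD28KO (adjusted p = 0.274) and 0.51 ± 0.19 in WT (adjusted p = 0.17). Without the libraries that stand apart the CD28KO difference was 0.58 ± 0.14 and called (adjusted p = 0.0147). Median scaling gave 0.72 in WT, which was called (adjusted p = 0.0221), as it was without those libraries (adjusted p = 0.0099).

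Across genotypes Bcl2l1 differed by -0.46 ± 0.19 in tTreg, where CD28KO libraries lay below WT libraries without overlap, but the adjusted p was 1 and the unadjusted limma p 0.0243. CD28KO libraries lay below WT libraries in this way for 15.1% of all tested genes in tTreg. The differences were -0.35 ± 0.19 in pTreg (adjusted p = 0.77) and -0.26 ± 0.19 in Tconv (adjusted p = 0.657).

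Bcl2, the founding anti-apoptotic member, had higher group means in Treg than in Tconv, but no comparison was called in the fit of all libraries without a block or rescaling. It had 37.9, 43.4 and 35.4 FPKM in CD28KO tTreg and 28.9, 51.8 and 48.2 FPKM in WT tTreg. It had 36.6, 50.2 and 47.4 FPKM in CD28KO pTreg and 22.8, 51.2 and 55.4 FPKM in WT pTreg. CD28KO Tconv had 19.2, 30.1 and 29.6 FPKM and WT Tconv 20.1, 30.7 and 31.7 FPKM. Replicate 1 was the lowest library in 5 of the 6 groups, and the Treg libraries below 31.7 FPKM were the WT tTreg and WT pTreg replicates 1.

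In tTreg minus Tconv, Bcl2 differed by 0.57 ± 0.31 in CD28KO (adjusted p = 0.362, and 0.0468 with the replicate block) and by 0.61 ± 0.31 in WT (adjusted p = 0.274, 0.0314 with the block and 0.0272 after median scaling). In pTreg minus Tconv it differed by 0.76 ± 0.31 in CD28KO (adjusted p = 0.207, 0.0155 with the block, 0.037 after median scaling and 0.0282 without the libraries that stand apart) and by 0.56 ± 0.31 in WT (adjusted p = 0.38). The WT pTreg value was called after median scaling (0.77, adjusted p = 0.00944) and without WT pTreg replicate 1 (adjusted p = 0.0462). Without the libraries that stand apart Bcl2 was not called in WT pTreg minus Tconv, nor in tTreg minus Tconv of either genotype. Between CD28KO and WT, Bcl2 differed by -0.10 ± 0.31 in tTreg, 0.14 ± 0.31 in pTreg and -0.06 ± 0.31 in Tconv (adjusted p = 1, 0.843 and 0.988), and each of these values turned sign under at least 1 alternative.

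Mcl1, a labile anti-apoptotic protein that T cells need at every stage, ranged from 134 FPKM in WT pTreg replicate 1 to 241 FPKM in WT pTreg replicate 3. Its group means were 217 ± 10.1 FPKM in CD28KO tTreg and 212 ± 16.3 FPKM in WT tTreg (SD, n = 3 each, as below). They were 218 ± 27.0 FPKM in CD28KO pTreg and 201 ± 58.4 FPKM in WT pTreg, and 175 ± 26.6 FPKM in CD28KO Tconv and 199 ± 4.65 FPKM in WT Tconv. Groups next to each other in order of mean overlapped, CD28KO tTreg lay above CD28KO Tconv without overlap, and no comparison was called. The largest differences were 0.32 ± 0.19 for pTreg minus Tconv (adjusted p = 0.472) and 0.31 ± 0.19 for tTreg minus Tconv (adjusted p = 0.464), both in CD28KO.

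No comparison of the effectors was called on all libraries, though some of their CD28KO groups did not overlap. For the lack of overlap between populations no share of all tested genes was taken. Bax had group means of 72.4 ± 4.67 FPKM in CD28KO tTreg and 81.1 ± 5.22 FPKM in WT tTreg. It had 102 ± 17.3 FPKM in CD28KO pTreg and 89.0 ± 15.4 FPKM in WT pTreg, and 64.9 ± 8.18 FPKM in CD28KO Tconv and 88.1 ± 36.3 FPKM in WT Tconv. The wide WT Tconv spread came from replicate 1, at 130 FPKM, against 67.7 and 66.6 FPKM in replicates 2 and 3. In CD28KO, all Bax values in pTreg lay above all values in tTreg and in Tconv. The difference was 0.64 ± 0.22 for pTreg minus Tconv (adjusted p = 0.122, and 0.0169 without WT Tconv replicate 1) and -0.48 ± 0.22 for tTreg minus pTreg (adjusted p = 0.367). Without the libraries that stand apart these were 0.53 ± 0.14 and -0.48 ± 0.12, and both were called (adjusted p = 0.0178 and 0.0203). The call in tTreg minus pTreg was lost when CD28KO tTreg replicate 3 was left out as well. In tTreg all Bax values in CD28KO lay below those in WT, as for 15.1% of all tested genes, with a difference of -0.16 ± 0.22 (adjusted p = 1).

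Bak1 was lower in CD28KO than in WT without overlap in tTreg and in Tconv, as were 15.1% and 18.2% of all tested genes. It had 21.9, 22.4 and 19.2 FPKM in CD28KO tTreg and 27.1, 28.3 and 27.2 FPKM in WT tTreg. In CD28KO Tconv it had 15.5, 17.6 and 16.7 FPKM and in WT Tconv 33.4, 25.1 and 22.9 FPKM. The pTreg ranges overlapped, at 22.2 to 23.8 FPKM in CD28KO and 17.2 to 30.0 FPKM in WT. The difference in Tconv was -0.66 ± 0.18 (adjusted p = 0.157), and it was -0.51 ± 0.12 and called without the 3 libraries that stand apart (adjusted p = 0.0395). The difference in tTreg was -0.37 ± 0.18 (adjusted p = 1). Within CD28KO, all Bak1 values in Tconv lay below those in tTreg and in pTreg, with differences of 0.33 ± 0.18 for tTreg minus Tconv (adjusted p = 0.374) and 0.46 ± 0.18 for pTreg minus Tconv (adjusted p = 0.186). Without the libraries that stand apart they were 0.34 ± 0.11 and 0.47 ± 0.11 and called (adjusted p = 0.0421 and 0.00945).

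Beside the values of Bax, Bak1 and Bbc3 in WT Tconv replicate 1 stand those of the handling stress genes. Hspa1a was at 86.2 FPKM there, against 5.48 and 19.0 FPKM in replicates 2 and 3, and the summed level of the 5 stress genes reached 993 FPKM, the highest of the 18 libraries. The part of that state in the high values was not tested. Without WT Tconv replicate 1, Bbc3 was called in tTreg minus Tconv in WT (adjusted p = 0.00781).

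Among the BH3-only members, Pmaip1 gave the widest range. Its product, Noxa, binds mainly Mcl1 and A1. It had 8.66, 9.22 and 6.64 FPKM in CD28KO tTreg and 10.7, 5.31 and 7.53 FPKM in WT tTreg. It had 2.58, 3.84 and 3.10 FPKM in CD28KO pTreg and 4.18, 2.87 and 2.90 FPKM in WT pTreg. CD28KO Tconv had 0.386, 0.404 and 0.957 FPKM and WT Tconv 1.77, 1.45 and 1.07 FPKM. The populations did not overlap with each other in either genotype. In Tconv CD28KO lay below WT without overlap, as for 18.2% of all tested genes.

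In tTreg minus Tconv Pmaip1 rose by 2.54 ± 0.23 in CD28KO (adjusted p = 3.93e-06) and by 1.83 ± 0.23 in WT (adjusted p = 2.88e-05), called under all 27 alternatives, and by 2.71 and 1.93 without the libraries that stand apart. In pTreg minus Tconv it rose by 1.41 ± 0.23 in CD28KO (adjusted p = 0.00102), again under all 27 (1.57 without those libraries), and differed by 0.83 ± 0.23 in WT (adjusted p = 0.0502). In tTreg minus pTreg it rose by 1.14 ± 0.23 in CD28KO (adjusted p = 0.00624, under all 27) and by 1.0 ± 0.23 in WT (adjusted p = 0.0137). That last call was not made after median scaling (0.76, adjusted p = 0.222), with quantile normalization (adjusted p = 0.205), with a pseudocount of 0.1 (adjusted p = 0.0616), with only the compared groups (adjusted p = 0.206), or without WT tTreg replicate 1 or 3 or WT pTreg replicate 3 (adjusted p between 0.0564 and 0.0764), while it was 1.14 without the libraries that stand apart (adjusted p = 0.0084). Between CD28KO and WT it differed by 0.08 ± 0.23 in tTreg, -0.05 ± 0.23 in pTreg and -0.63 ± 0.23 in Tconv (adjusted p = 1, 0.928 and 0.399).

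Bcl2l11, which encodes Bim, the BH3-only protein of cytokine withdrawal and negative selection, was highest in CD28KO pTreg. It had 14.2, 22.1 and 21 FPKM there and 8.21, 16.9 and 16.4 FPKM in WT pTreg. It had 10.8, 11.9 and 12.2 FPKM in CD28KO tTreg and 11.7, 15.1 and 14.3 FPKM in WT tTreg. CD28KO Tconv had 10.6, 17.4 and 13.2 FPKM and WT Tconv 8.94, 15.9 and 16.5 FPKM. Replicate 1 was the lowest library in every group, and the CD28KO tTreg values lay below all CD28KO pTreg values.

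Bcl2l11 differed by -0.65 ± 0.28 in tTreg minus pTreg in CD28KO, with an adjusted p of 0.309 without the replicate block and 0.0232 with it. It was also called after median scaling (-0.65, adjusted p = 0.0136), with quantile normalization (adjusted p = 0.0113) and without the 3 libraries that stand apart (-0.65 ± 0.18, adjusted p = 0.0329). That call was lost when CD28KO tTreg replicate 3 was left out as well. Bcl2l11 was also not called with only the compared groups, with a pseudocount of 0.1, without the filter on low values or without the variance trend. With Bcl2l11, median scaling gave 3 members higher and 1 lower in that comparison, and quantile normalization 4 higher and 1 lower, against 3 higher and 0 lower in the unscaled fit. In WT the same difference was 0.04 ± 0.28 (adjusted p = 0.957). Between CD28KO and WT it differed by -0.21 ± 0.28 in tTreg, 0.47 ± 0.28 in pTreg and 0.01 ± 0.28 in Tconv (adjusted p = 1, 0.77 and 1).

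Bcl2l11 and Bcl2 were both low in most replicate 1 libraries, so their ratio was also taken within each library. The ratio of Bcl2l11 to Bcl2 was 0.284, 0.274 and 0.344 in CD28KO tTreg and 0.405, 0.291 and 0.297 in WT tTreg. It was 0.388, 0.439 and 0.443 in CD28KO pTreg and 0.361, 0.331 and 0.297 in WT pTreg. It was 0.551, 0.579 and 0.445 in CD28KO Tconv and 0.446, 0.518 and 0.520 in WT Tconv. In WT tTreg replicate 1 stayed apart as the highest value, and in WT pTreg replicate 1 was the highest without standing apart. All Tconv libraries lay above all Treg libraries, though narrowly, at 0.445 in CD28KO Tconv replicate 3 against 0.443 in CD28KO pTreg replicate 3. CD28KO pTreg lay above WT pTreg without overlap. The lowest Tconv value in CD28KO, 0.445, was that of the library with Treg transcripts. The ratio was looked at after the values of both genes were known and is given with no test.

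**Figure D4:**
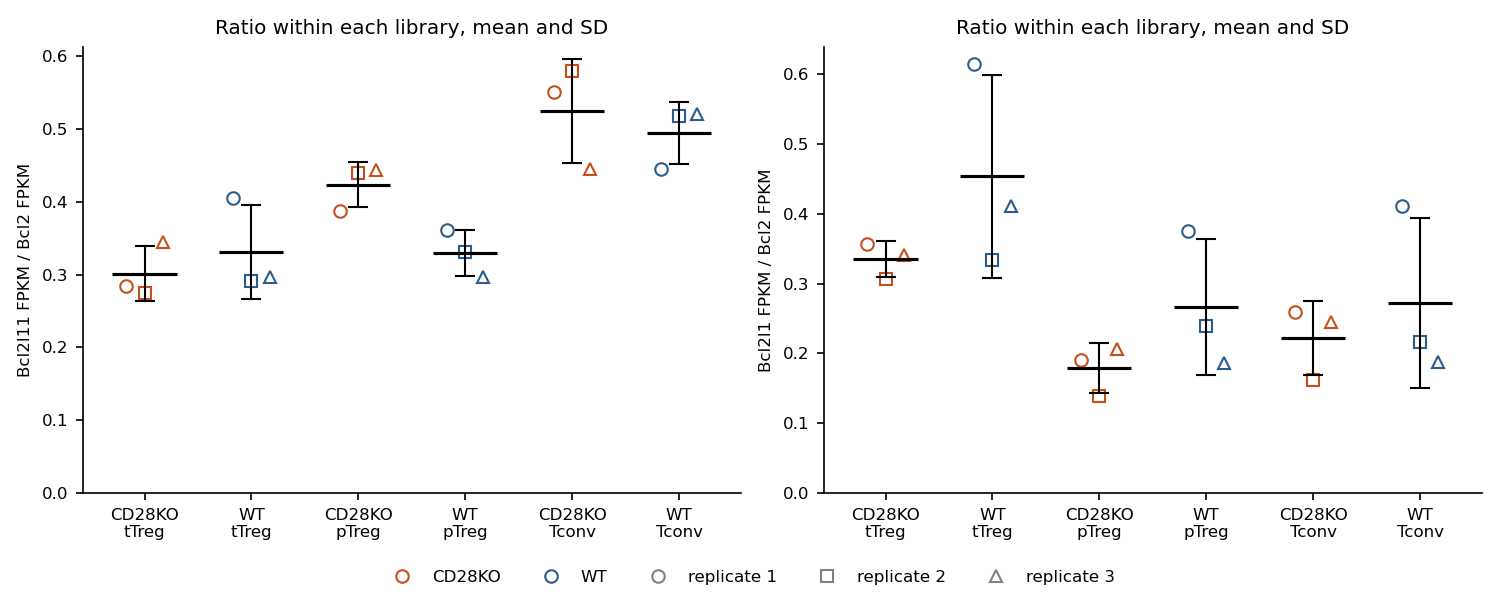
Ratio of Bcl2l11 to Bcl2 (left) and of Bcl2l1 to Bcl2 (right) in FPKM within each library, by group, with mean and SD of 3 libraries. The left ratio is 0.445 to 0.579 in Tconv and 0.274 to 0.443 in Treg libraries. The right ratio is spread widely in WT, where replicate 1 is highest in each population.

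Bbc3, which encodes Puma, a BH3-only protein induced by p53 and by FOXO factors, was the most even BH3-only member. Its group means ran from 12.2 ± 1.58 FPKM in WT pTreg to 16.5 ± 1.29 FPKM in WT tTreg. Groups next to each other in order of mean overlapped, and no comparison was called on all libraries. In WT, tTreg (15.3 to 17.9 FPKM) lay above pTreg (10.5 to 13.7 FPKM), a difference of 0.42 ± 0.26 (adjusted p = 0.514) that was 0.50 ± 0.12 and called without the libraries that stand apart (adjusted p = 0.0233). Between CD28KO and WT it differed by -0.15 ± 0.26 in tTreg, 0.14 ± 0.26 in pTreg and 0.01 ± 0.26 in Tconv (adjusted p = 1, 0.817 and 1). In Tconv, values of 15.8, 13.3 and 11.8 FPKM in CD28KO stood against 24.7, 10.1 and 9.50 FPKM in WT. Only WT replicate 1 lay above the CD28KO values, so the small size of that difference rests on it.

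**Figure D5:**
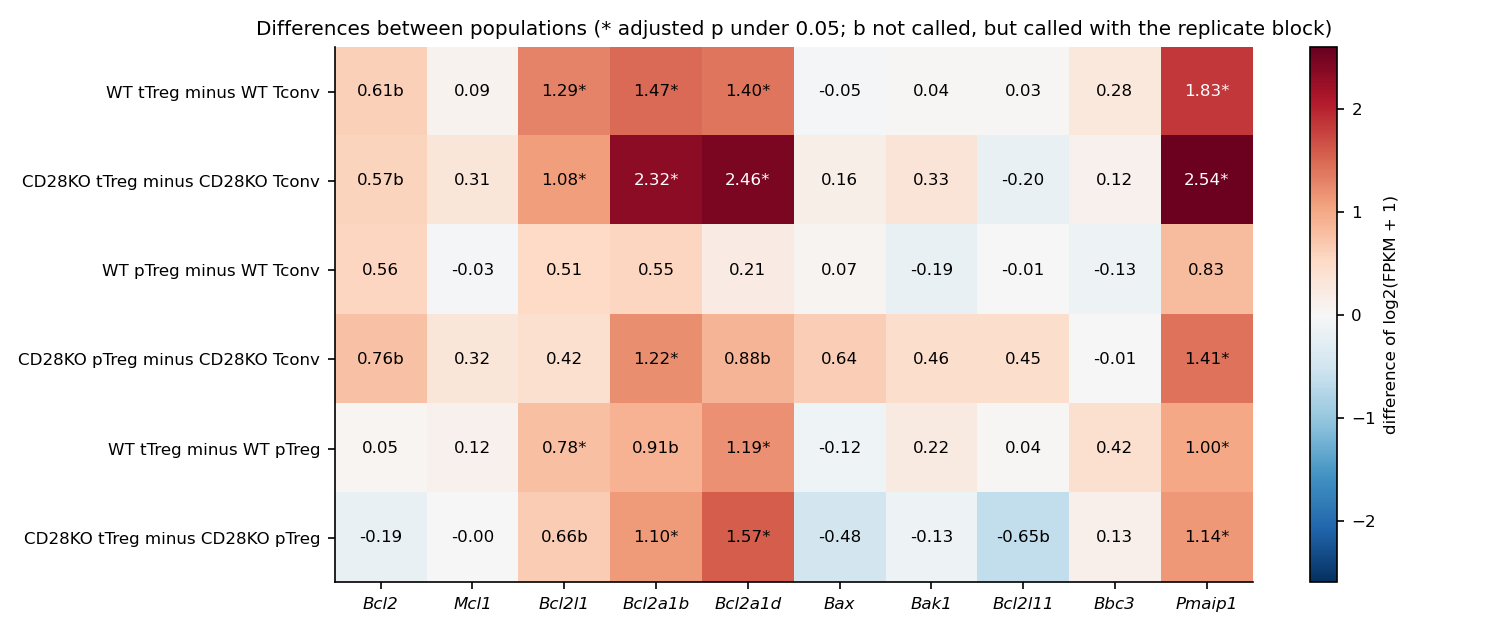
Differences of log2(FPKM + 1) between populations for each member (columns) in 6 comparisons (rows), with a star at adjusted p under 0.05 and the letter b where a paired comparison is called with the replicate block but not without it. Some pairs marked b are also called under other alternatives. Bcl2l1, Bcl2a1b, Bcl2a1d and Pmaip1 are called in tTreg minus Tconv in both genotypes, at 1.08 to 2.54.

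Whether the CD28 difference itself varied between populations was tested as an interaction, and 0 of 10 members passed in any of the 3 tests. The background was 0.122% of all tested genes for tTreg minus Tconv, 0.0734% for pTreg minus Tconv and 0.0245% for pTreg minus tTreg, and 3, 1 and 0 members had an unadjusted p under 0.05. The CD28 difference of Bcl2a1d in tTreg minus that in Tconv was 1.06 ± 0.36 and that of Bcl2a1b 0.85 ± 0.37 (adjusted p = 1 for both). In pTreg minus Tconv they were 0.68 ± 0.36 and 0.66 ± 0.37 (adjusted p = 0.467 for both). The A1 calls in Tconv and their absence in Treg are thus not shown to differ.

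Of 13 other family genes, 10 were tested, and Bcl2l10, Bok and Hrk stayed at or below 0.233 FPKM. In tTreg minus Tconv 4 of 10 rose in CD28KO (9.63% of all tested genes were called higher) and 4 of 10 in WT (8.33%), in each genotype Bcl2a1a, Bcl2l2 (Bcl-w, anti-apoptotic), Bid (a BH3-only protein cut by caspase 8) and Bcl2l14. Bcl2l2 rose by 1.05 ± 0.19 in CD28KO (2.80 ± 0.353 FPKM in tTreg and 0.849 ± 0.397 FPKM in Tconv) and by 1.24 ± 0.19 in WT (adjusted p = 0.000771 and 0.000174). Bid rose by 0.92 ± 0.17 in CD28KO and by 1.01 ± 0.17 in WT (adjusted p = 0.000845 and 0.000382). Bcl2l14 was at most 1.16 FPKM in any library. In tTreg minus pTreg 2 of 10 rose in CD28KO (Bcl2a1a and Bid) and 4 of 10 in WT (Bcl2a1a, Bid, Bcl2l2 and Bcl2l14). Of all tested genes, 3.13% were called higher there in CD28KO and 4.44% in WT. After median scaling Bcl2a1a (0.75, adjusted p = 0.125) and Bcl2l14 (0.40, adjusted p = 0.261) were no longer called in WT tTreg minus pTreg, nor Bcl2l14 in CD28KO tTreg minus Tconv (0.33, adjusted p = 0.256). In pTreg minus Tconv 0 of 10 passed in either genotype (5.85% of all tested genes in CD28KO and 4.49% in WT). The medians over the 10 genes in tTreg minus Tconv were 0.44 in CD28KO and 0.49 in WT, against 0.09 and -0.02 for all tested genes.

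Between CD28KO and WT, 1 of the 10 other family genes passed in Tconv (0.791% of all tested genes). In tTreg and in pTreg 0 of 10 passed (0.204% of all tested genes in each), and 3 each had an unadjusted p under 0.05. The gene called in Tconv was the further A1 copy, Bcl2a1a, which fell by 1.12 ± 0.18 (adjusted p = 0.00432). It had 1.15, 1.22 and 1.16 FPKM in CD28KO Tconv and 5.43, 3.45 and 2.66 FPKM in WT Tconv. Here replicate 3 of CD28KO Tconv did not stand above the others. Since it shares 69.0% of its 50-base windows with other genes, this call is not independent of those of Bcl2a1b and Bcl2a1d, and it was not made after median scaling (-0.97, adjusted p = 0.187).

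Downstream of the mitochondria, 16 genes of the apoptosis machinery were tested. None of the 16 passed between CD28KO and WT in any population, where 2 had an unadjusted p under 0.05 in tTreg, 1 in pTreg and 3 in Tconv. Of all tested genes only 0.204% passed in tTreg, 0.204% in pTreg and 0.791% in Tconv, so no call in a list of this size says little about it. Birc3, which encodes the inhibitor of apoptosis protein cIAP2, rose in CD28KO by 0.72 ± 0.21 in tTreg minus Tconv (adjusted p = 0.0296) and by 0.74 ± 0.21 in pTreg minus Tconv (adjusted p = 0.0467), calls made under 22 and 13 of the 27 alternatives.

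Of 10 death receptor genes, 2 rose and 2 fell in tTreg relative to Tconv in each genotype. The share of all tested genes called there was 12.1% in CD28KO and 12.6% in WT. The death ligand gene Tnfsf10 (TRAIL) rose by 1.44 ± 0.36 in CD28KO and 1.43 ± 0.36 in WT (adjusted p = 0.0106 and 0.0119), and Fas by 0.87 ± 0.21 and 0.84 ± 0.21 (adjusted p = 0.00957 and 0.0122). Tnfrsf1a, a TNF receptor, changed by -0.81 ± 0.20 and -0.89 ± 0.20 (adjusted p = 0.00997 and 0.00496), and Fasl, the ligand of Fas, by -0.72 ± 0.19 and -0.82 ± 0.19 (adjusted p = 0.0184 and 0.00755). None of the 10 passed between CD28KO and WT in any population, where 1 had an unadjusted p under 0.05 in pTreg, 1 in Tconv and 0 in tTreg. The share of all tested genes that passed was 0.204% in tTreg, 0.204% in pTreg and 0.791% in Tconv.

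Of 18 tested upstream regulators (cytokine receptors, kinases and transcription factors that act on the family), 4 rose and 1 fell in tTreg minus Tconv in CD28KO, and 4 rose and 2 fell in WT. The share of all tested genes called was 12.1% in CD28KO and 12.6% in WT. Il2ra, one of the Treg markers, was among those that rose in both genotypes. Pim1, a survival kinase, rose by 1.43 ± 0.19 in CD28KO and 1.45 ± 0.19 in WT (adjusted p = 4.63e-05 and 3.64e-05). The IL-2 receptor chain gene Il2rb rose by 4.10 ± 0.57 and 2.98 ± 0.57 (adjusted p = 8.32e-05 and 0.00145). None of the 18 passed between CD28KO and WT in any population, where 2 had an unadjusted p under 0.05 in tTreg, 1 in pTreg and 2 in Tconv. The share of all tested genes that passed was 0.204% in tTreg, 0.204% in pTreg and 0.791% in Tconv.

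Il7r, the receptor of a cytokine known to sustain Bcl2, was singled out after its values were seen. It had 117, 138 and 133 FPKM in CD28KO tTreg and 49.9, 63.0 and 69.6 FPKM in WT tTreg. It had 66.9, 95.4 and 86.7 FPKM in CD28KO pTreg and 15.3, 41.5 and 48.6 FPKM in WT pTreg. All CD28KO libraries lay above all WT libraries in both Treg populations, which was so for 2.68% of all tested genes in tTreg and 4.57% in pTreg, and the differences were 1.08 ± 0.33 in tTreg and 1.35 ± 0.33 in pTreg (adjusted p = 0.477 and 0.207). Both were called after median scaling (1.13 and 1.15, adjusted p = 0.0225 and 0.0111) and neither with quantile normalization (adjusted p = 0.0779 and 0.0847). Without the libraries that stand apart they were 1.08, called (adjusted p = 0.0153), and 0.86, not called (adjusted p = 0.0792). In Tconv the difference was 0.19 ± 0.33 (adjusted p = 0.915), and the CD28 differences in tTreg and in pTreg were not shown to differ from it (interaction adjusted p = 1 and 0.467). Bcl2 in the same Treg libraries overlapped between the genotypes.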

How the data were processed

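Libraries were made from total RNA with a NEBNext Ultra kit and read as single reads of 50 nt, per the labels. The authors deposited FPKM values for every gene symbol in a table per library. Tools named in the submitters' processing notes are Cufflinks, TopHat2 2.0.11 and Trimmomatic 1, with the build GRCm38. The files name no unit, so FPKM was inferred from Cufflinks and from fractional values that are never negative. The annotation, the strand setting and the treatment of reads that match several genes are not given in the sources used here. Low values did not fall on common steps, so no read counts were recovered and no counting intervals could be given.

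Groups follow the genotype and population in the titles. The 12265 genes that reached 1 FPKM in 3 or more of the 18 libraries were tested with limma 3.58.1 in R 4.3.3 on log2(FPKM + 1), in a model of the 6 group means with a variance trend (12 residual degrees of freedom, prior degrees of freedom with a median of 4.06). Tests were two-sided, with Benjamini-Hochberg adjustment over all tested genes in each of 9 comparisons of 2 groups and 3 interactions. The code was tested on simulated data. Named genes are all members, at most 4 called genes of each other list per comparison by size of change, and the 3 genes most correlated with each of 4 members. Some genes that the rule names are not reported here. The members, lists and tests were chosen with earlier results of these data known.

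Libraries of equal replicate number deviated together from their group means (correlation above 0.1 for all 3 numbers) in 6 of 9 comparisons, all but CD28KO against WT in tTreg and in pTreg and WT pTreg against WT Tconv, and for 17 of 18 libraries the closest library by deviation had the same number. Values with a block on that number are given where they change a call. Positions, transcripts and coding sequences are from GENCODE mouse release 21, not necessarily the annotation the authors used, and promoter windows (250 bases before to 50 after a start) are from RefSeq, GRCm38.p6, for 9 of 10 members.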

Additional observations from a re-analysis of the deposited data

How the results depend on the processing

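None of the 18 called pairs of a member and a comparison changed sign under any of 27 alternatives, while 43 of the 102 uncalled pairs did in at least 1. The number of members called was 4 in tTreg minus Tconv in each genotype and stayed at 4 or 5 under the alternatives that keep all groups. It was 0 under every alternative for CD28KO minus WT in tTreg and in pTreg and for the 3 interactions. For CD28KO minus WT in Tconv it was 2, and 0 with only the compared groups, 0 with quantile normalization, 0 with median scaling and 0 to 3 with 1 library left out, and the count over all tested genes was 97 and 3 with only the compared groups. For tTreg minus pTreg in CD28KO it was 3, and 5 with the replicate block, 5 with quantile normalization and 6 without the 3 libraries that stand apart. For tTreg minus pTreg in WT it was 3, and 0 with only the compared groups, 0 with quantile normalization, 0 with median scaling, 5 without the 3 libraries, 5 without these and CD28KO tTreg replicate 3, and 1 to 4 with 1 library left out. For pTreg minus Tconv in CD28KO it was 2, and 4 with the replicate block, 1 with only the compared groups, 7 without the 3 libraries, 7 without these and CD28KO tTreg replicate 3, and 1 to 4 with 1 library left out. For pTreg minus Tconv in WT it was 0, and 1 with the replicate block, 2 with quantile normalization, 2 with median scaling, 2 without the 3 libraries, 2 without these and CD28KO tTreg replicate 3, and 0 or 1 with 1 library left out. The causes of these shifts were not tested, beyond fewer libraries or residual degrees of freedom where groups or libraries were left out. The replicate block lost none of the 18 calls, and where the numbers did not pair the libraries it added 1, Pmaip1 in pTreg minus Tconv in WT (adjusted p = 0.0271). Limits: 3 libraries a group, an unknown depth, shared reads among the A1 genes, and 3 libraries that stand apart bound how small a difference could be called, so an uncalled difference is not shown to be absent.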

Other observations

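The genes most like a member over the 18 libraries, by Pearson r of log2(FPKM + 1), were taken for 4 members and are a description, since libraries share 6 groups. For Bcl2a1b they were Acot7 (r = 0.982), Pglyrp1 (0.971) and Hip1r (0.962), with r between 0.988 and 0.995 over the 6 group means. For Bcl2 they were Serinc5 (0.940), Cdk19 (0.937) and Tlr1 (0.935), and for Mcl1 Stau1 (0.971), Tbce (0.957) and Cct4 (0.957). For Bcl2l11 they were Pitpnc1 (0.944), Thada (0.942) and Foxp1 (0.929). Bcl2 and Mcl1 correlated at 0.80 with each other and Bcl2 and Bcl2l11 at 0.68, and these 3 genes share the low values of WT pTreg replicate 1.

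Bik, a BH3-only gene of the wider family, and Il2rb were singled out after their values were seen. Bik had 5.32, 4.45 and 1.97 FPKM in CD28KO pTreg and 0.732, 1.65 and 1.18 FPKM in WT pTreg, without overlap, and differed by 1.12 ± 0.32 (limma adjusted p = 0.426). All CD28KO libraries lay above all WT libraries for 4.57% of all tested genes in pTreg. Bik had 2.79, 3.34 and 0.939 FPKM in CD28KO tTreg and 0.542, 1.18 and 0.665 FPKM in WT tTreg, with overlap, a difference of 0.84 ± 0.32 (adjusted p = 0.993). Il2rb had 5.11, 6.86 and 59.5 FPKM in CD28KO Tconv and 37.3, 39.9 and 36.4 FPKM in WT Tconv, a difference of -1.44 ± 0.57 (adjusted p = 0.445). The high value was that of the library with Treg transcripts. Without the 3 libraries that stand apart the difference was -2.50 ± 0.21 (adjusted p = 4.78e-05), with 2 libraries a group, and the CD28 effect in tTreg minus that in Tconv was 2.17 (adjusted p = 0.00385), against 1.12 with all libraries (adjusted p = 1).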
